A study of Bos taurus with 2 samples.

Results

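The 4 genes that are read together as the cadherin switch were followed in single nuclei of cattle (Bos taurus) blastocysts and blastoids. They are CDH1 (E-cadherin), CDH2 (N-cadherin), EPCAM (epithelial cell adhesion molecule) and VIM (vimentin). The members were the listed symbols in the deposited feature lists, and all 4 were found once among the 35643 features of both libraries. Blastoids are embryo models in which cultured stem cells form a structure resembling a blastocyst. They were wild type per the labels and came from 3 stem cell lines, with 8 bEPSCs, 8 bXENs and 16 bTSCs seeded in each microwell. The blastocysts were wild type and collected on day 8. Both were frozen before nuclei were isolated with a 10x Genomics kit. The number of structures or embryos pooled is not given in the sources used here. Each group had 1 library, so no test between groups was possible, and every difference below compares these 2 libraries or classes of nuclei within 1 of them.

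E-cadherin and N-cadherin are classical cadherins, membrane proteins that bind the same cadherin on the neighbouring cell and connect through catenins to the actin cytoskeleton. E-cadherin is typical of epithelia, and in early mammalian embryos it holds the blastomeres together and serves compaction and the trophectoderm epithelium. In an epithelial-to-mesenchymal transition, cells lose E-cadherin and gain N-cadherin and vimentin, an intermediate filament protein. Transcription factors of the SNAI, ZEB and TWIST families are known repressors of CDH1 in that transition. EPCAM is an epithelial surface protein that is cleaved by proteases and modulates adhesion and claudins.

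After filtering, 1914 blastoid nuclei with 7481886 UMIs and 827 blastocyst nuclei with 6861558 UMIs were kept. UMIs are counted transcript molecules, and a level is given in CPM, the UMIs of a gene scaled by all UMIs of the class. Exact Poisson 95% intervals follow in brackets, and they cover counting error only. Each library was clustered without the 4 genes, the pathway lists and the marker genes. The blastocyst gave 404 hypoblast-like nuclei (median 7669 UMIs), 229 trophectoderm-like nuclei (8793), 72 epiblast-like nuclei (10146) and an unnamed shallow group of 122 nuclei (1698) led by IFI6 and keratin genes. The blastoid gave 154 trophectoderm-like nuclei (14620), 141 unnamed nuclei (10924) whose leading genes include LMX1A, NLGN1 and DCC, called DCC-high here, and 1619 shallow nuclei (1922) with 15.7% ribosomal protein UMIs. The shallow ribosomal-rich group held 42.3% of the blastoid UMIs. Its mitochondrial share was 2.03%, against 0.427% in blastoid trophectoderm-like and 0.558% in DCC-high nuclei. All barcodes kept after filtering are called nuclei here, and whether those of the shallow groups are intact nuclei was not tested. The blastoid trophectoderm-like cluster showed 7 trophectoderm markers, GATA2 and GATA3 among them, but also 5 genes of the epiblast list (DNMT3B, ESRRB, TFCP2L1, DPPA2 and DPPA4). The blastocyst hypoblast-like cluster carried 12 hypoblast markers and also SOX2, PRDM14 and OTX2 of the epiblast list, and the epiblast-like cluster also carried the hypoblast marker HNF4A. Only 1 barcode was shared by the libraries.

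CDH1, the epithelial cadherin, was present in all blastocyst lineages at similar levels and lower in every blastoid class. In the blastocyst its level was 665 CPM (632 to 699) in trophectoderm-like, 605 CPM (579 to 632) in hypoblast-like and 504 CPM (454 to 557) in epiblast-like nuclei. The shallow keratin-led group stood at 739 CPM (661 to 823), which overlaps the trophectoderm-like interval. The blastoid order was 429 CPM (403 to 456) in trophectoderm-like, 251 CPM (234 to 269) in ribosomal-rich and 86.3 CPM (73.6 to 101) in DCC-high nuclei. The highest blastoid class overlapped only the epiblast-like class of the embryo in its interval. The order of these 2 classes moved with the settings. Against blastocyst trophectoderm-like nuclei, the epiblast-like log2 ratio was -0.88 and -0.87 at resolutions 0.3 and 1.0. That of blastoid trophectoderm-like nuclei was -0.63 at 0.5. In single nuclei the median was 6 CDH1 UMIs in blastocyst trophectoderm-like nuclei (0 to 29), 4 in hypoblast-like (0 to 27), 4 in epiblast-like (0 to 22), 5 in blastoid trophectoderm-like (0 to 28) and 0 in DCC-high nuclei (0 to 23).

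CDH2, the cadherin of neural and mesenchymal cells, separated the classes far more widely. Blastocyst trophectoderm-like nuclei held 4 CDH2 UMIs in all, each in a different nucleus, or 1.76 CPM (0.478 to 4.50). Hypoblast-like nuclei reached 118 CPM (107 to 130) from 399 UMIs and epiblast-like nuclei 205 CPM (174 to 240) from 154 UMIs, with intervals that do not overlap. Few nuclei carry the epiblast-like level: 7 of 72 held 56.5% of its CDH2 UMIs. Without the nucleus that held 27 of them it was 171 CPM (143 to 204). The shallow keratin-led group had 24.6 CPM (12.3 to 44.1) from 11 UMIs in 5 nuclei, and 11.4 CPM (3.69 to 26.5) without the nucleus that held 6 of them. In the blastoid, trophectoderm-like nuclei had 43.4 CPM (35.5 to 52.5), ribosomal-rich nuclei 169 CPM (155 to 184) and DCC-high nuclei 1334 CPM (1282 to 1387). DCC-high nuclei made up 25.4% of the blastoid UMIs and held 79.8% of its CDH2 UMIs. Their median was 15 CDH2 UMIs per nucleus (0 to 131), and 139 of 141 had at least 1. In all other classes the median nucleus had 0.

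EPCAM varied least among the deep classes. It stood at 190 CPM (173 to 209) in trophectoderm-like, 187 CPM (172 to 202) in hypoblast-like and 199 CPM (169 to 234) in epiblast-like nuclei of the blastocyst, 3 overlapping intervals. DCC-high nuclei lay in the same range at 182 CPM (163 to 202), and their CDH1 was the lowest of any class. The part of free RNA, from outside the nuclei, in this EPCAM level was not tested. Blastoid trophectoderm-like nuclei had 328 CPM (305 to 351). The shallow keratin-led group of the blastocyst had 432 CPM (373 to 497), but 63 of its 193 EPCAM UMIs came from 1 nucleus with 80592 UMIs in all, and without it the level was 355 CPM (297 to 422), overlapping the blastoid trophectoderm-like interval. Ribosomal-rich blastoid nuclei had 1040 CPM (1005 to 1076) and held 74.3% of the EPCAM UMIs of that library.

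VIM was nearly absent from the deep blastocyst classes and present in all blastoid classes. There were 4 VIM UMIs in 229 trophectoderm-like nuclei (1.76 CPM, 0.478 to 4.50), 12 in 404 hypoblast-like nuclei (3.55 CPM, 1.83 to 6.19) and 13 in 72 epiblast-like nuclei (17.3 CPM, 9.20 to 29.5). Without the 1 epiblast-like nucleus that held 5 of them, that level was 10.8 CPM (4.66 to 21.3). The shallow keratin-led group had 31 VIM UMIs (69.4 CPM, 47.1 to 98.5), all of them in 3 nuclei, and 31.5 CPM (17.2 to 52.8) without the nucleus that held 17. The blastoid values were 64.1 CPM (54.4 to 75.0) in trophectoderm-like, 140 CPM (124 to 158) in DCC-high and 578 CPM (552 to 605) in ribosomal-rich nuclei. Ribosomal-rich nuclei held 81.3% of the blastoid VIM UMIs. At least 1 VIM UMI was found in 58.4% of blastoid trophectoderm-like nuclei, against 1.75% of those of the blastocyst. Thinned to 2000 UMIs per nucleus, a VIM UMI was left in 18.7% (12.8% to 25.8%, exact Clopper-Pearson) of the blastoid class and in 0 of 226 nuclei (up to 1.62%) of the blastocyst class, shares that hold for that depth and for 1 draw. Averaged over all thinnings they were 14.1% and 0.364%.

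**Figure D1:**
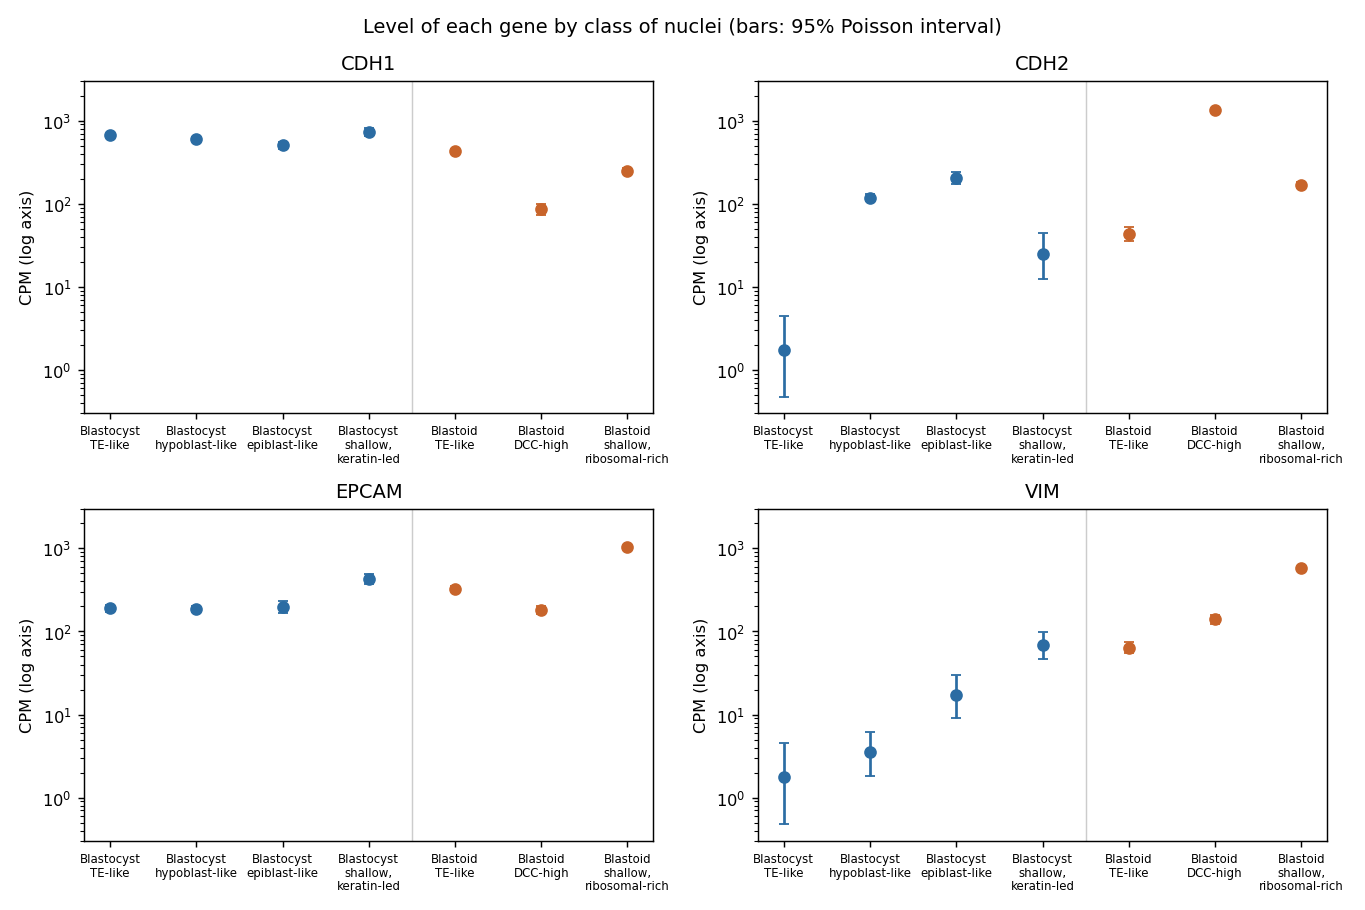
Level of CDH1, CDH2, EPCAM and VIM (CPM, log axis) in the 4 blastocyst classes (blue) and 3 blastoid classes (orange), with exact Poisson 95% intervals; TE is trophectoderm. CDH2 spans from 1.76 CPM in blastocyst trophectoderm-like nuclei to 1334 CPM in DCC-high nuclei, while EPCAM stays between 182 and 328 CPM in the 5 deep classes.

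The study set blastoids beside embryos, and over whole libraries the 4 genes split into 1 lower and 3 higher in the blastoid. CDH1 had 267 CPM in the blastoid and 622 CPM in the blastocyst, a log2 ratio of -1.22 (exact conditional 95% interval -1.30 to -1.14). CDH2 had 424 against 82.8 CPM, 5.12-fold higher (4.69 to 5.61). EPCAM had 592 against 205 CPM, 2.88-fold higher (2.72 to 3.06). VIM had 301 against 8.74 CPM, 34.4-fold higher (26.6 to 45.2). All 4 members passed 2-fold, CDH1 downwards, in a comparison where 23.2% of 16904 genes with at least 20 UMIs were higher past 2-fold and 20.0% lower. The make-up of the libraries enters these ratios. With only nuclei of at least 4000 UMIs, the EPCAM log2 ratio fell to 0.41, which is under 2-fold, and scaling by the median gene (a shift of -0.25 on the log2 scale) put CDH1 at -0.98, just short of 2-fold.

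Between the trophectoderm-like classes, which hold no ribosomal-rich nuclei, CDH2 and VIM had more UMIs in the blastoid, at low levels, and CDH1 and EPCAM differed by less than 2-fold. CDH2 had 105 UMIs in the blastoid class against 4 in the blastocyst class, 24.7-fold higher in CPM (9.37 to 92.4). VIM had 155 against 4 UMIs, 36.5-fold higher (14.0 to 136). CDH1 had a log2 ratio of -0.63 (-0.75 to -0.52) and EPCAM one of 0.79 (0.62 to 0.96). So 2 of 4 members were higher past 2-fold and 0 lower, where 18.8% of 12797 genes were higher and 12.8% lower. The CDH2 UMIs of the blastoid class were concentrated: 15 of its 154 nuclei held 61.9% of them. When the class was instead taken from nuclei with at least 2 UMIs of GATA2 and GATA3 and at most 1 UMI of the hypoblast and epiblast pairs, 258 blastoid nuclei were included and CDH2 stood at 194 CPM (178 to 210). This gate took in nuclei of other clusters: 437 of its 555 CDH2 UMIs came from 17 DCC-high nuclei, 28 from 105 ribosomal-rich nuclei and 90 from 136 nuclei of the trophectoderm-like cluster. The gated blastocyst class had 2.53 CPM, and the log2 ratio of CDH2 was then 6.26 in place of 4.63.

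Other RNAs of the shallow ribosomal-rich group were seen in the blastoid trophectoderm-like class too, and they give a scale for these low levels. AFP, a secreted endoderm protein, stood at 260 CPM in the ribosomal-rich group, at 0.162 times that (0.131 to 0.200) in trophectoderm-like and at 0.154 times that (0.120 to 0.195) in DCC-high nuclei. The corresponding value for VIM was 0.111 (0.0935 to 0.131) in trophectoderm-like and 0.242 (0.212 to 0.276) in DCC-high nuclei. For CDH2 it was 0.256 (0.206 to 0.316) in trophectoderm-like and 7.87 (7.17 to 8.66) in DCC-high nuclei. CDH2 in DCC-high nuclei was thus above the ribosomal-rich level itself. EPCAM had 0.315 (0.291 to 0.341) in trophectoderm-like and 0.175 (0.156 to 0.195) in DCC-high nuclei, where its interval overlapped that of AFP. CDH1 had 1.71 (1.56 to 1.88) and 0.344 (0.289 to 0.407). In the trophectoderm-like class single nuclei weigh on these ratios, since 1 nucleus held 20 of 105 CDH2 UMIs and 1 held 26 of 102 AFP UMIs. Without the top nucleus of each gene, the ratio was 0.210 (0.165 to 0.265) for CDH2, 0.122 (0.0949 to 0.154) for AFP and 0.109 (0.0917 to 0.129) for VIM. The CDH2 interval without its top nucleus overlapped that of AFP with all nuclei and not that of AFP without its own, and VIM and AFP overlapped once the AFP nucleus was left out. After thinning to 2000 UMIs, AFP was found in 9.33% (5.20% to 15.2%, exact Clopper-Pearson) of blastoid trophectoderm-like nuclei, CDH2 in 7.33% (3.72% to 12.7%) and VIM in 18.7% (12.8% to 25.8%). Averaged over all thinnings, these shares were 7.28%, 6.53% and 14.1%. The intervals of CDH2 and AFP overlap, and the order of the 2 genes differs between these shares and the CPM ratios, so no order is read from the shares. The part of free RNA in the CDH2 and VIM ratios of the trophectoderm-like classes was not tested. Nor was its part in the EPCAM and CDH1 levels of DCC-high nuclei. AFP itself had 0 UMIs in the blastocyst classes.

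Within the blastocyst, the hypoblast-like and epiblast-like classes had CDH2 in addition to CDH1, not in its place. Hypoblast is the lineage of the yolk sac endoderm, and epiblast gives the embryo proper. Against trophectoderm-like nuclei, CDH2 was 67.2-fold higher in hypoblast-like (26.0 to 248) and 117-fold higher in epiblast-like nuclei (44.6 to 433), both set against 4 UMIs. Over the settings tried, the CDH2 log2 ratio ranged from 5.73 to 6.18 in hypoblast-like and from 6.54 to 7.69 in epiblast-like nuclei. CDH1 differed from trophectoderm-like nuclei by a log2 ratio of -0.14 (-0.23 to -0.04) in hypoblast-like and -0.40 (-0.57 to -0.24) in epiblast-like nuclei. The EPCAM log2 ratios were -0.03 (-0.20 to 0.15) and 0.07 (-0.21 to 0.34), intervals that include no difference. For VIM the epiblast-like ratio was 9.84-fold (3.04 to 41.4) from 13 and 4 UMIs, and the hypoblast-like interval, 0.612 to 8.59, included no difference. With classes gated on marker pairs, epiblast-like nuclei held 2 VIM UMIs (6.27 CPM, 0.760 to 22.7), no higher than gated hypoblast-like nuclei (6.85 CPM, 3.54 to 11.97), and the epiblast-like log2 ratio was 2.48 in place of 3.30. Both VIM pairs had under 20 UMIs, so 3 members were counted in each comparison. Of these 3, only CDH2 passed 2-fold, upwards. The background was 18.0% of genes higher and 12.6% lower for hypoblast-like, and 15.9% higher and 17.4% lower for epiblast-like nuclei. At Leiden resolutions 0.3 and 1.0 the epiblast-like class, matched by shared barcodes, held 16 nuclei, and its CDH1 log2 ratio was then -0.88 and -0.87. At 1.0 another cluster of 62 nuclei, matched to the shallow keratin-led group, also took the epiblast-like name. Scaling by the median gene, a shift of 0.25 in this comparison, gave CDH1 -0.65. The sign of the small epiblast-like EPCAM ratio changed with the settings. The line between these 2 classes also moved with the method: of 37 nuclei gated as epiblast-like, 17 lay in the epiblast-like cluster and 18, with 35 of the 75 CDH2 UMIs, in the hypoblast-like cluster. Of 204 nuclei gated as hypoblast-like, 183 lay in the hypoblast-like cluster and 10 in the epiblast-like one. CDH2 stood at 235 CPM (185 to 295) in the epiblast-like and 134 CPM (118 to 152) in the hypoblast-like gate.

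The hypoblast-like nuclei were not uniform in CDH2. Split by which UMIs were more numerous, 136 nuclei fell on a side with GATA4, NID1 and COL18A1 and 238 on a side with KIT, VWF and A2M, with 30 nuclei tied. CDH2 stood at 188 CPM (164 to 214) on the GATA4 side, with UMIs in 59 of 136 nuclei, and at 72.9 CPM (61.5 to 85.7) on the KIT side, with UMIs in 49 of 238. CDH1 was 552 CPM (511 to 596) on the GATA4 side and 639 CPM (604 to 675) on the KIT side, so the side with more CDH2 had the lower CDH1, with intervals that do not overlap. EPCAM was 190 and 183 CPM, with overlapping intervals. Over the whole class, the 40 nuclei richest in CDH2 held 69.2% of its UMIs.

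In the blastoid, DCC-high nuclei had more CDH2 and VIM and less CDH1 than trophectoderm-like nuclei. Against the trophectoderm-like nuclei of the same library, CDH2 was 30.7-fold higher (25.3 to 37.7), CDH1 was 4.97-fold lower (4.21 to 5.90) and VIM was 2.19-fold higher (1.79 to 2.68). EPCAM had a log2 ratio of -0.85 (-1.04 to -0.67), under 2-fold. Thus 2 members were higher and 1 lower past 2-fold, where 19.5% of 13203 genes were higher and 16.9% lower. Both classes were deep, at medians of 10924 and 14620 UMIs. The CDH1 UMIs of DCC-high nuclei were unevenly spread: 14 of 141 nuclei held 60.4% of them, and 81 nuclei had none.

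**Figure D2:**
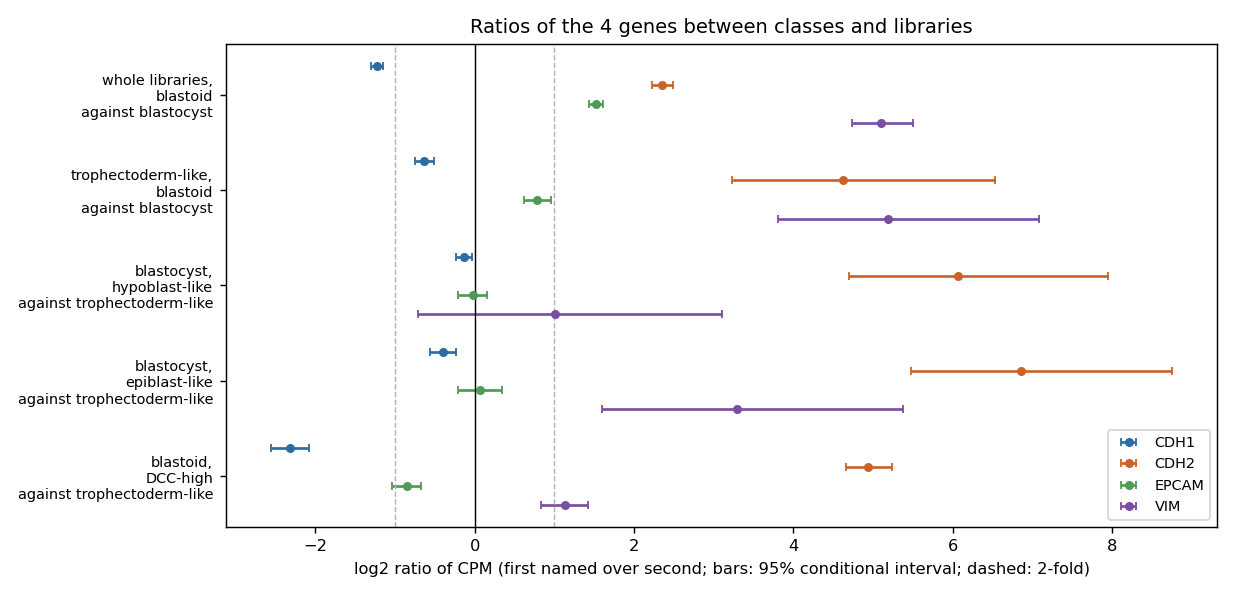
Log2 ratio of CPM for the 4 genes in 5 comparisons, first-named class over the second, with exact conditional 95% intervals; dashed lines mark 2-fold. CDH2 lies beyond 2-fold in all 5, and CDH1 lies beyond 2-fold downwards in the whole libraries (-1.22) and in DCC-high nuclei (-2.31).

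The 2 cadherins were then read in the same nucleus. Among nuclei with at least 5 UMIs of CDH1 and CDH2 together, 143 of 145 blastocyst trophectoderm-like nuclei had CDH1 alone. Of 222 hypoblast-like nuclei, 136 had CDH1 alone and 86 (38.7%, 32.3% to 45.5%, Clopper-Pearson) had both: 56 mostly CDH1, 27 mostly CDH2 and 3 equal amounts. None had CDH2 alone. Of 42 epiblast-like nuclei, 27 had both (64.3%, 48.0% to 78.4%), 14 had CDH1 alone and 1 had CDH2 alone. In DCC-high nuclei the balance was turned: 67 of 126 had CDH2 alone, 59 had both with CDH2 in excess, and 0 were mostly or only CDH1. CDH1 in these nuclei stood at 0.344 of the ribosomal-rich level, where AFP stood at 0.154. The part of free RNA in the 59 was not tested. Blastoid trophectoderm-like nuclei had CDH1 alone in 49 of 94 and both in 45, of which 42 were mostly CDH1. Their CDH2 stood at 0.256 of the ribosomal-rich level, where AFP stood at 0.162, and the part of free RNA in the 45 was not tested. These counts depend on depth, since a deeper nucleus can show a rare second cadherin. The cut-off also uses the 2 genes that are read, so blastocyst trophectoderm-like nuclei could pass it almost only through CDH1. In part the counts thus restate the class levels. Without the cut-off, at full depth, 27.5% of hypoblast-like and 47.2% of epiblast-like nuclei had both.

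**Figure D3:**
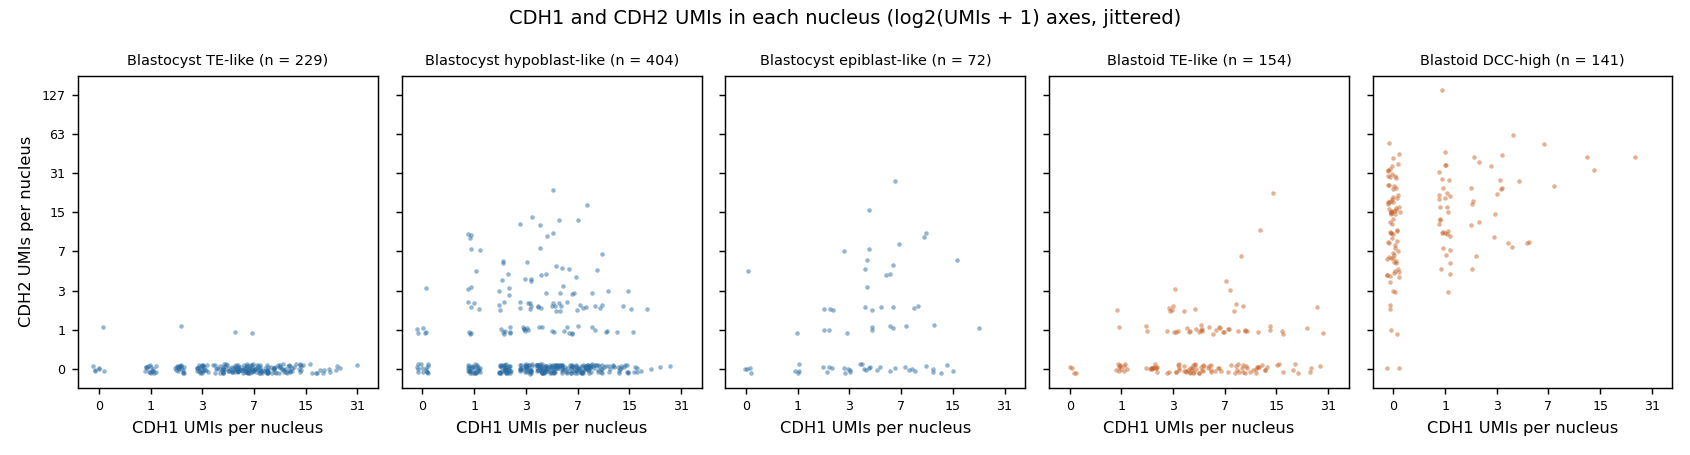
CDH1 (x axis) and CDH2 (y axis) UMIs of every nucleus in the 5 deep classes, on log2(UMIs + 1) axes with jitter. Blastocyst trophectoderm-like nuclei lie along the CDH1 axis, and hypoblast-like and epiblast-like nuclei spread upwards while keeping CDH1. Of 141 DCC-high nuclei, 79 lie on the CDH2 axis and 60 beside it, with UMIs of both.

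**Figure D4:**
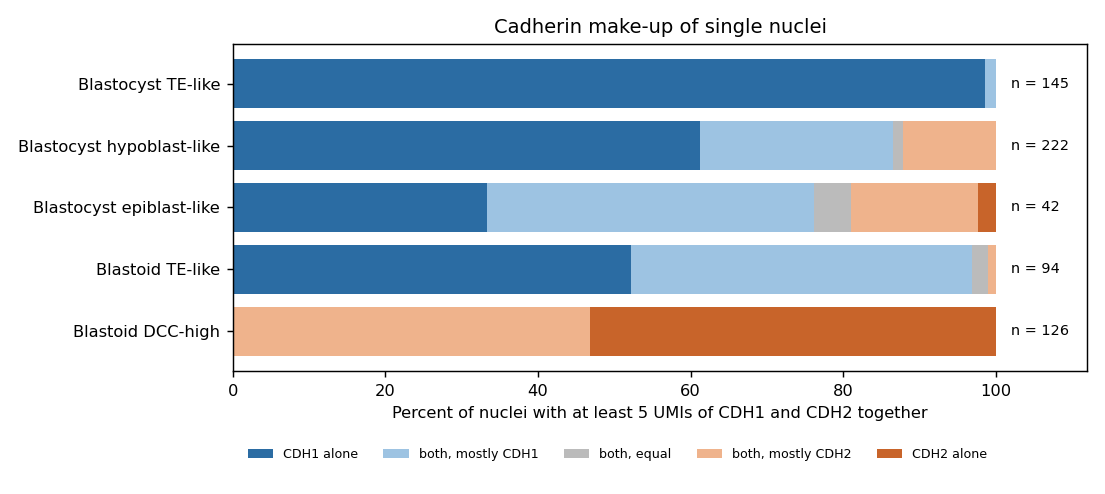
Percent of nuclei with CDH1 alone, both cadherins or CDH2 alone, among nuclei with at least 5 UMIs of the 2 genes, in the 5 deep classes (n at the right). CDH1 alone accounts for 143 of 145 blastocyst trophectoderm-like nuclei and for 0 of 126 DCC-high nuclei.

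The count of nuclei with both cadherins was set beside the product of the 2 shares in each class. At full depth 1 of the 2 genes was found in nearly all nuclei of several classes, which nearly fixes the count, so the nuclei were thinned first. At 1 fixed depth of 2000 UMIs, both were found in 38 of 397 hypoblast-like nuclei (9.57%, 6.86% to 12.9%; product 42.8 nuclei), 13 of 140 DCC-high nuclei (9.29%, 5.04% to 15.4%; product 14.4) and 9 of 72 epiblast-like nuclei (12.5%, 5.88% to 22.4%; product 7.40). In ribosomal-rich nuclei, 64 of 683 held both (9.37%, 7.29% to 11.8%; product 71.7), and in blastoid trophectoderm-like nuclei 11 of 150 (7.33%, 3.72% to 12.7%; product 6.53). These are counts of 1 draw, and some change with it. Averaged over all thinnings, the count of nuclei with both and the product were 34.4 and 38.2 in hypoblast-like, 15.4 and 15.1 in DCC-high, 10.3 and 9.62 in epiblast-like, 62.9 and 74.9 in ribosomal-rich, and 5.45 and 5.38 in blastoid trophectoderm-like nuclei. Of these, the average was below the product in hypoblast-like and ribosomal-rich nuclei and just above it in the other 3 classes. It was also below, at very low counts, in blastocyst trophectoderm-like nuclei (0.589 and 0.819) and in the shallow keratin-led group (1.42 and 1.81).

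The level of CDH1 was also read in nuclei with and without a CDH2 UMI. In hypoblast-like nuclei CDH1 was 503 CPM (462 to 548) in the 117 nuclei with a CDH2 UMI and 652 CPM (619 to 686) in the 287 without, intervals that do not overlap. In epiblast-like nuclei the values were 496 CPM (430 to 570) with and 512 CPM (440 to 593) without CDH2. In blastoid trophectoderm-like nuclei they were 421 CPM (381 to 465) and 434 CPM (401 to 469). EPCAM in hypoblast-like nuclei was 174 CPM (150 to 201) with and 193 CPM (175 to 211) without CDH2, which overlap. Nuclei with a CDH2 UMI were also deeper. Median UMIs with and without one were 8792 and 7338 in hypoblast-like, 10495 and 9196 in epiblast-like and 17296 and 13054 in blastoid trophectoderm-like nuclei. The hypoblast-like contrast overlaps the split by side, where the GATA4 side had more CDH2 and less CDH1, so it is not a separate result. The difference between classes in the CDH1 contrast was not tested. At full depth, CDH2 and VIM were found together in 1 of 404 hypoblast-like nuclei (product 2.61 nuclei) and 4 of 72 epiblast-like nuclei (3.40). In DCC-high nuclei the count was 107 of 141 (product 105), nearly fixed because 139 had CDH2.

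The upstream repressors differed among themselves. ZEB2 had 2754 UMIs (1450 CPM) in DCC-high nuclei against 83 (34.3 CPM) in blastoid trophectoderm-like nuclei, 42.3-fold higher (34.0 to 53.2). ZEB1 was 12.9-fold higher from 508 and 50 UMIs. TCF4, an E-protein, was 4.08-fold higher and KLF8 had 518 against 52 UMIs. By contrast SNAI1 had at most 18 UMIs and SNAI2 at most 1 in any class, and TWIST1 had 12 in DCC-high nuclei. Of 8 EMT transcription factors with at least 20 UMIs in this comparison, 4 were higher past 2-fold and 2 lower, where 19.5% of all genes were higher and 16.9% lower. The 2 lower ones were TWIST2, with 3 against 30 UMIs, and PRRX2, with 14 against 70. The median log2 ratio of the list was 1.16, and that of all genes 0.00. In the blastocyst, ZEB2 had 40 UMIs in epiblast-like nuclei, 2 in hypoblast-like and 3 in trophectoderm-like nuclei. ZEB1 was 3.79-fold higher in hypoblast-like and 4.43-fold higher in epiblast-like than in trophectoderm-like nuclei. So both embryo classes with CDH2 had more ZEB1, and ZEB2 accompanied CDH2 in the epiblast-like but not in the hypoblast-like class.

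The epithelial regulators ran the other way. In DCC-high nuclei, 12 of 12 counted epithelial transcription and splicing factors were lower past 2-fold than in blastoid trophectoderm-like nuclei, with a median log2 ratio of -2.44, where 16.9% of all genes were lower. ESRP1, an epithelial splicing regulator, had 75 against 714 UMIs, and TP63, a transcription factor of stratified epithelia, 41 against 461. In hypoblast-like nuclei 7 of 11 of this list were lower and 0 higher than in trophectoderm-like nuclei, and in epiblast-like nuclei 7 of 10 and 0, where 12.6% and 17.4% of all genes were lower in these comparisons. The grainyhead factors, which maintain epithelial genes such as CDH1, were far lower: GRHL2 had 41 UMIs in hypoblast-like and 2 in epiblast-like against 547 in trophectoderm-like nuclei, and GRHL1 had 97 and 17 against 977. At the resolution of 0.5, the CDH1 point values were within 1.32-fold of the trophectoderm-like level in both. At resolution 0.3 the epiblast-like log2 ratio of CDH1 was -0.88. A link between these factors and CDH1 was not tested. ESRP1 stood at 265, 226 and 238 CPM in hypoblast-like, epiblast-like and trophectoderm-like nuclei, against 39.5 CPM in DCC-high nuclei. Between the trophectoderm-like classes, GRHL1 (477 and 429 CPM) and ESRP1 (295 and 238 CPM) were within 2-fold, and GRHL2 lay at the 2-fold line with 291 against 547 UMIs (ratio 0.501, 0.433 to 0.579). TP63 was 4.52-fold higher in the blastoid and KLF5 had 544 against 1207 UMIs. Of 13 counted genes of the list, 3 were higher and 2 lower, where 18.8% of all genes were higher and 12.8% lower.

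Junction genes were mostly lower in the 3 classes with more CDH2 than their trophectoderm-like counterpart. Of the 42 genes of epithelial adhesion and junction, 25 were lower and 0 higher past 2-fold in DCC-high than in blastoid trophectoderm-like nuclei (median log2 ratio -1.39), where 16.9% of all genes were lower and 19.5% higher. The lowest were ST14, a membrane protease, and MARVELD2, tricellulin of tight junctions. In hypoblast-like nuclei 25 of 42 were lower and 2 higher (median -1.43), where 12.6% of all genes were lower and 18.0% higher. In epiblast-like nuclei 26 of 39 were lower and 1 higher (median -1.92), where 17.4% were lower and 15.9% higher. Desmocollin DSC2 had 426 UMIs in trophectoderm-like, 14 in hypoblast-like and 3 in epiblast-like nuclei. An exception was F11R, junctional adhesion molecule A, which was 3.08-fold higher in hypoblast-like and 3.24-fold higher in epiblast-like nuclei. Between the trophectoderm-like classes, 7 of the 42 were higher in the blastoid, KRT19 and CLDN4 among them, and 5 lower, TJP3 and CLDN23 among them, near the shares over all genes (18.8% and 12.8%).

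The catenins and other partners of the cadherins had no common direction in the classes with more CDH2. Of the genes of cadherin partners, 2 of 24 were higher and 4 lower past 2-fold in DCC-high than in blastoid trophectoderm-like nuclei, where 19.5% of all genes were higher and 16.9% lower. Against blastocyst trophectoderm-like nuclei, 3 of 24 were higher and 5 lower in hypoblast-like nuclei (18.0% and 12.6% of all genes), and 5 of 23 higher and 7 lower in epiblast-like nuclei (15.9% and 17.4%). CTNNA2, the neural alpha-catenin, had 4539 UMIs in DCC-high against 148 in blastoid trophectoderm-like nuclei (39.1-fold, 33.2 to 46.3), whereas the widely expressed alpha-catenin CTNNA1 had 331 and 483 CPM. In the embryo CTNNA2 was low in both classes with CDH2, at 11.8 CPM from 40 UMIs in hypoblast-like and 19.9 CPM from 15 UMIs in epiblast-like nuclei, against 2390 CPM in DCC-high nuclei. CTNND2, the neural delta-catenin, was 18.7-fold higher in DCC-high nuclei, and in the embryo it was 13.8-fold higher in hypoblast-like and 43.5-fold higher in epiblast-like than in trophectoderm-like nuclei. CTNND1 (p120-catenin) stood between 307 and 342 CPM in these 3 embryo classes. JUP (plakoglobin) was lower in each, at 16.5 CPM in hypoblast-like, 19.9 CPM in epiblast-like and 115 CPM in trophectoderm-like nuclei. Other cadherins had class patterns of their own. CDH6 (K-cadherin) had 2834 UMIs in DCC-high nuclei and 144 in blastoid trophectoderm-like nuclei, but only 7 in hypoblast-like and 11 in epiblast-like nuclei. CDH4 (R-cadherin) was 7.86-fold higher in epiblast-like and 2.33-fold higher in hypoblast-like than in trophectoderm-like nuclei. CDH3 (P-cadherin) was 1.82-fold higher in DCC-high than in blastoid trophectoderm-like nuclei, and CDH13 (T-cadherin, an atypical member anchored by a lipid and without a catenin-binding tail) was lower in hypoblast-like and epiblast-like than in trophectoderm-like nuclei. Counts over the list of other cadherins, which also holds members that are not classical, were 6 higher and 4 lower of 14 in DCC-high nuclei, where 19.5% of all genes were higher and 16.9% lower. Between the trophectoderm-like classes they were 6 higher and 1 lower of 9, where 18.8% of all genes were higher and 12.8% lower.

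In DCC-high nuclei 5 of 24 counted genes of mesenchymal cytoskeleton and matrix were higher and 4 lower than in trophectoderm-like nuclei, with a median log2 ratio of 0.01. These shares are near those over all genes (19.5% higher and 16.9% lower). NES (nestin), another intermediate filament gene, was 2.31-fold higher. In the embryo NES was 14.6-fold higher and FN1 (fibronectin) 10.97-fold higher in hypoblast-like than in trophectoderm-like nuclei, where VIM had 12 and 4 UMIs. CALD1 (caldesmon) and TPM1 (tropomyosin) were lower there, with 1435 against 3037 UMIs and 334 against 569 UMIs, or log2 ratios of -1.65 and -1.34. Of 17 counted genes of the list, 5 were higher and 4 lower in hypoblast-like nuclei, where 18.0% of all genes were higher and 12.6% lower. Fibroblast markers bear on this, since the growth protocol used feeder cells and included a step to deplete them. The 14 markers summed to 59.1 to 85.3 CPM in the blastoid classes and 96.3 to 154 CPM in the blastocyst classes, and in DCC-high nuclei 13 of 14 were detected, with DCN at 0. FBN1 alone gave 111 to 121 CPM in the 3 deep blastocyst classes. Without it the other 13 markers summed to 37.4 CPM in DCC-high, 27.3 CPM in trophectoderm-like and 55.3 CPM in ribosomal-rich blastoid nuclei, and to 33.2 CPM in epiblast-like, 13.9 CPM in hypoblast-like, 27.7 CPM in trophectoderm-like and 82.8 CPM in shallow keratin-led blastocyst nuclei. The part of feeder RNA in the VIM levels was not tested. Neural markers summed to 10044 CPM in DCC-high nuclei and to 115 to 854 CPM in the other classes. This list was written with these genes' values known. CTNNA2 is on it, and SOX1 was at 0 in all classes.

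Genes of EPCAM cleavage and binding were counted last. Between the trophectoderm-like classes, 4 of 12 were higher in the blastoid and 0 lower, where 18.8% of all genes were higher and 12.8% lower, with CLDN7, a claudin that binds EPCAM, 2.11-fold higher. The sheddase gene ADAM10 had a ratio of 1.10 (1.02 to 1.19). In DCC-high nuclei LEF1, the transcription factor that the EPCAM intracellular domain can join, was 9.87-fold higher than in trophectoderm-like nuclei, while CD9 and FHL2 were lower. In all, 2 of 12 genes of this list were higher and 3 lower in DCC-high nuclei, where 19.5% of all genes were higher and 16.9% lower.

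**Figure D5:**
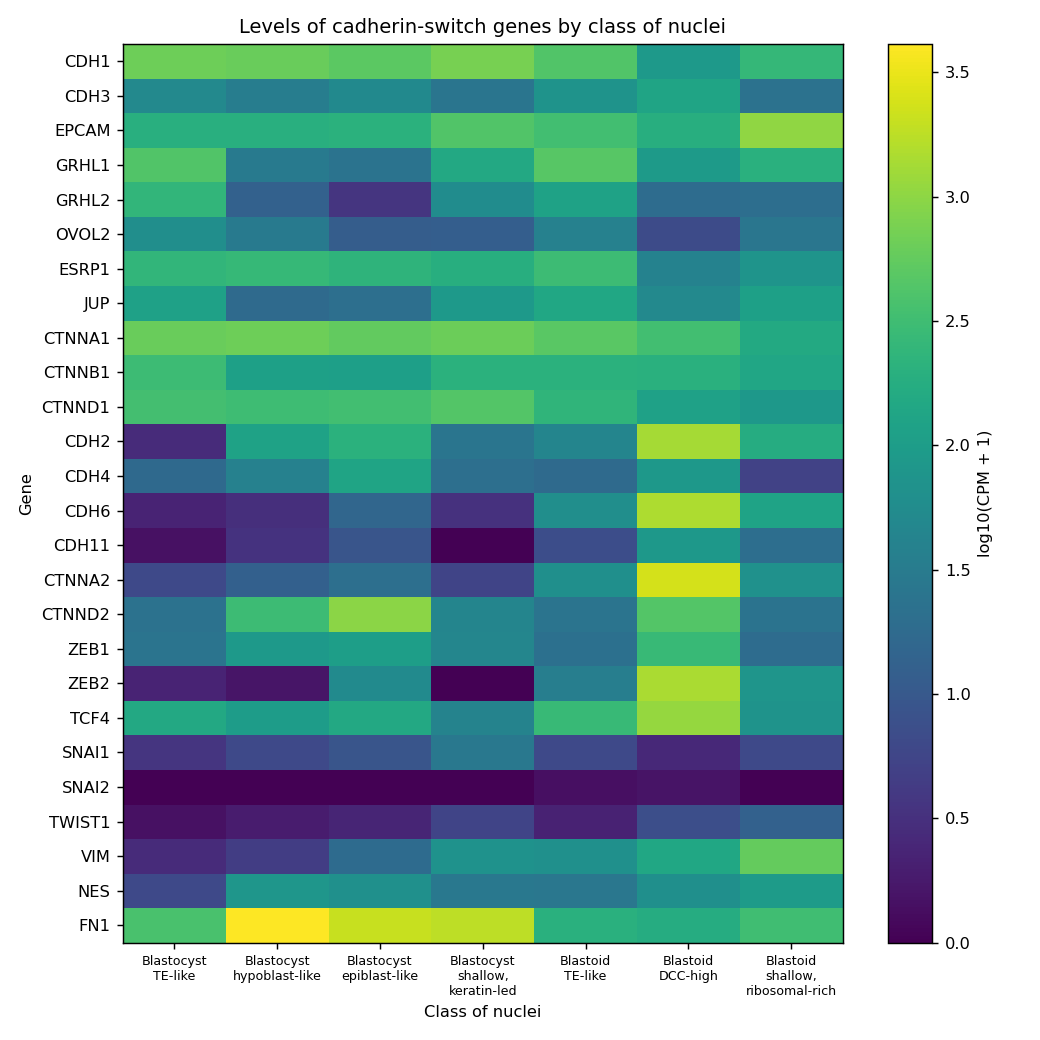
Level of the 4 genes and 22 related genes, chosen for display after their values were seen, as log10(CPM + 1) in the 7 classes; colours are to be compared along a row, since genes differ in length. ZEB2, CDH6 and CTNNA2 are bright in DCC-high nuclei, GRHL1 and GRHL2 in both trophectoderm-like classes, and CTNND2 in epiblast-like, hypoblast-like and DCC-high nuclei.

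Over the 7 classes, the log2(CPM + 5) values of CDH1 and CDH2 had a Pearson correlation of -0.81, as a description over classes that share 2 libraries and differ in depth. It was 0.77 for EPCAM and VIM, -0.62 for CDH1 and VIM, 0.49 for CDH2 and VIM, and -0.04 for EPCAM with either cadherin. The genes with patterns most like CDH1 among 8564 compared were C21H15orf39, TBX3 and ZFP57. For CDH2 they were ALG6, MNS1 and CCDC88A, for EPCAM PLPP2, PTGR1 and TXNL4A, and for VIM UCHL1, CCDC43 and C23H6orf141, all with r between 0.97 and 0.996. These names changed with other settings in 7 of 8 cases. Genomic neighbours by the RefSeq gene order differed in how far they shared a member's pattern. Next to CDH2, DSC3 and CHST9 had at most 11 UMIs in any class, and next to CDH1, CDH3 was highest in DCC-high nuclei (129 CPM), where CDH1 was lowest. Next to EPCAM, the calmodulin gene CALM2 had a similar order, with 1296 CPM in ribosomal-rich, 651 CPM in shallow keratin-led, 357 CPM in blastoid trophectoderm-like and 114 to 244 CPM in the other nuclei. Next to VIM, which was highest in ribosomal-rich nuclei, TRDMT1 was highest in DCC-high (116 CPM) and ST8SIA6 in blastoid trophectoderm-like nuclei (272 CPM).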

How the data were processed

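Droplet single-nucleus RNA libraries of 1 blastoid and 1 blastocyst sample were compared. The authors deposited raw UMI counts for each feature and barcode; per the file headers, Cell Ranger 7.2.0 wrote the matrices. The submitters' processing notes name Cell Ranger 7.1.0 and Seurat 4.3.0. Genome build and annotation are not given in the sources used here, so no coordinates are printed. The blastoid file held 1957 barcodes with 7575395 UMIs and the blastocyst file 944 with 7029253.

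Barcodes with at least 500 genes and under 10% mitochondrial UMIs were kept, and the highest Scrublet scores were removed at 0.8% per 1000 barcodes (30 and 6 nuclei). Each library was clustered alone with scanpy 1.11.5 and leidenalg 0.10.2 (2000 variable genes, 30 components, 15 neighbours, resolution 0.5). The 4 genes, the list genes and the markers were left out of clustering. A marker counted with at least 100 UMIs and 1.5 times the CPM of the other clusters, and a cluster took the name of the list with most markers, at least 3. Clusters over 5% ribosomal protein UMIs were kept apart. The rule was changed once after names were seen: a first version asked for 2 times the markers of any other list and used the neural list. It left the blastoid trophectoderm-like cluster unnamed and called the DCC-high cluster neural-like. The neural list was dropped from naming because it was written with that cluster's genes known.

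Sums carry exact Poisson, ratios exact conditional and shares exact Clopper-Pearson 95% intervals (scipy 1.17.1), all for counting error only. In list counts and medians, counts under 3 were set to 3, genes needed 20 UMIs in both sums together, and a call was past 2-fold. No test across samples was possible with 1 library per group. Members and lists were chosen with earlier results of these data known. The genes named are the 4 members, the 2 highest and 2 lowest of each list with at least 100 UMIs, the 3 most alike to each member, and transcription factors, cadherins and catenins by role. Other genes named, and the values without 1 nucleus, without FBN1 or averaged over all thinnings, were chosen after the values were seen. Of 168 list genes, 166 matched a symbol. OVOL3 and GSC were not analysed here. A planned promoter motif search was not run. The steps were tested on simulated data.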

Additional observations from a re-analysis of the deposited data

How the results depend on the processing

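Of the 19 planned and 3 added alternatives, 11 bear on the ratios of the 4 genes, and over these no ratio whose interval excluded equality changed sign. The gated classes gave 16 of the 20 ratios. Of those whose interval included it, the EPCAM log2 ratio changed sign, ranging from -0.27 to 0.12 in epiblast-like and from -0.15 to 0.01 in hypoblast-like against trophectoderm-like nuclei. Of the ratio values, 197 stayed within their interval and 19 moved. For whole libraries, the log2 ratio of EPCAM was 1.41 with at least 1000 genes, 0.41 with at least 4000 UMIs, 1.64 scaled without ribosomal and mitochondrial genes and 1.77 scaled by the median. CDH1 was -1.11 and -0.98 under these 2 scalings, CDH2 was 2.87 with at least 4000 UMIs and 2.60 by the median, and VIM was 4.46 with at least 4000 UMIs. For epiblast-like against trophectoderm-like nuclei, CDH1 was -0.71 with at least 4000 UMIs, -0.88 and -0.87 at resolutions 0.3 and 1.0, -0.74 with gated classes and -0.65 by the median, and EPCAM was -0.23, -0.22 and -0.27 at the 2 resolutions and with gated classes. CDH1 between the trophectoderm-like classes was -0.86 with gated classes, and CDH2 in DCC-high nuclei was 5.34 with at least 4000 UMIs.

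The percent of nuclei with both cadherins moved with depth. Thinned to 1000 UMIs it was 3.57 in DCC-high, 2.66 in ribosomal-rich, 1.97 in blastoid trophectoderm-like, 5.56 in epiblast-like, 3.98 in hypoblast-like and 0 in blastocyst trophectoderm-like nuclei. Thinned to 4000 UMIs it was 21.6 in DCC-high, 12.5 in the shallow keratin-led group, 31.0 in epiblast-like and 17.4 in hypoblast-like nuclei. With no thinning it was 42.6 in DCC-high, 34.4 in blastoid trophectoderm-like, 47.2 in epiblast-like and 27.5 in hypoblast-like nuclei. In blastoid trophectoderm-like nuclei it was 3.33 with at least 1000 genes, 2.65 with no doublets removed, 2.67 with another seed and 3.63 averaged over all thinnings, an alternative chosen after seeing the data. It was 0 in blastocyst trophectoderm-like nuclei with at least 200 genes, at least 1000 genes, at least 4000 UMIs or another seed, and 0 in the shallow keratin-led group with at least 200 genes. With at least 4000 UMIs it was 11.5 in that group and 25 in epiblast-like nuclei.

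Over all lists together, with at least 100 UMIs, genes past 2-fold were 14 higher and 10 lower between the trophectoderm-like classes (32 and 16 in the text's setting), 10 higher in hypoblast-like (17), 8 higher in epiblast-like (17) and 32 lower in DCC-high nuclei (52). With no filter, 49 were higher in epiblast-like nuclei. Past 1.5-fold, 27 were lower between the trophectoderm-like classes and 26 higher in hypoblast-like nuclei. Names also moved: with at least 4000 UMIs the DCC-high cluster was named epiblast-like, without a ribosomal limit the ribosomal-rich group was named hypoblast-like, and asking for 2 times the markers, chosen after seeing the data, left the blastoid trophectoderm-like cluster unnamed. Blastocyst clusters matched to the shallow keratin-led group were named epiblast-like with at least 4000 UMIs (26 nuclei) and at resolution 1.0 (62 nuclei). At resolution 1.0 another cluster of that group (60 nuclei) was named ribosomal-rich, and 127 nuclei matched to the hypoblast-like class were unnamed. No paired analysis was possible because each group had 1 library. Depth limits CDH2 and VIM in blastocyst trophectoderm-like nuclei, where 4 UMIs set each ratio.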
